A study of Mus musculus with 12 samples.

Results

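The 8 genes Dbx1, Pax6, Pax3, Irx3, Irx5, Olig2, Gbx2 and Nkx6-1, which encode transcription factors that lay out cell identities in the neural tube, were followed in mouse embryonic stem (ES) cells with and without the zinc finger genes Rlf and Zfp292. They were taken by symbol from the deposited gene table, which held all 8 of them among its 17901 genes. RNA of the TT2 line was sequenced in 12 libraries, 4 groups of 3. The first group was wild-type cells (WT) grown on gelatin in ES medium with serum replacement, serum and LIF, the cytokine that keeps ES cells undifferentiated (serum/LIF below). The second was cells knocked out for both Rlf and Zfp292 (double knockout, DKO) in the same medium. The other groups were WT and DKO cells after 72 h in that medium without LIF and with 5 µM retinoic acid (RA below). Adding RA and taking LIF away therefore cannot be told apart. The labels speak of biological replicates and name no clone, so a DKO value may stand for 1 clone, and p-values measure the spread between these libraries.

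The neural tube is divided along its back-to-belly axis by opposing signals, BMP and Wnt proteins from the roof plate and Sonic hedgehog (Shh) from the floor plate and notochord. Progenitors read these signals through homeodomain and bHLH transcription factors that repress one another in pairs, so that each domain holds its own combination. Pax3 marks dorsal progenitors, Dbx1 a narrow band in the middle, Pax6, Irx3 and Irx5 a broad middle region, and Nkx6-1 and Olig2 ventral progenitors, Olig2 those of motor neurons and oligodendrocytes. Gbx2 acts along the other axis, in the anterior hindbrain, where it opposes Otx2 of the forebrain and midbrain. RA, a vitamin A derivative, gives hindbrain and spinal cord character and is widely used to turn ES cells neural.

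The stretch before the transcription start is shown for 4 genes, each standing for 1 of the patterns described below: Dbx1 (raised by RA, far lower in DKO), Irx3 (raised by RA, slightly lower in DKO), Gbx2 (no called RA change in WT, lower in DKO) and Olig2 (lost with RA). Each is the 250 bases before the start in RefSeq, build GRCm38.p6, read 5′ to 3′ on the gene's strand. Capitals mark matches on either strand to TATAAA or CCAAT, core promoter letters that 12.4% and 33.9% of 32841 such windows hold.
Dbx1, chr7:49636836-49637085, minus strand: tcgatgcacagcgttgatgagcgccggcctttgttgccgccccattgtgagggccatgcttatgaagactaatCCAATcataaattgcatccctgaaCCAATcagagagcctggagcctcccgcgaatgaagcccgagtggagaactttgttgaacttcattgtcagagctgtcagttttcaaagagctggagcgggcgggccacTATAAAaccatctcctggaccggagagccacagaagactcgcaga
Irx3, chr8:91801655-91801904, minus strand: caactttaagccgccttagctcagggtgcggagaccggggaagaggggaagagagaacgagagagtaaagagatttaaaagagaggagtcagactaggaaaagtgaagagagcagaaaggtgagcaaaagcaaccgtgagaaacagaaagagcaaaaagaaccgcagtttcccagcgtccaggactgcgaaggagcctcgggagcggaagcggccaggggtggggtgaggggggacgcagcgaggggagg
Gbx2, chr1:89931177-89931426, minus strand: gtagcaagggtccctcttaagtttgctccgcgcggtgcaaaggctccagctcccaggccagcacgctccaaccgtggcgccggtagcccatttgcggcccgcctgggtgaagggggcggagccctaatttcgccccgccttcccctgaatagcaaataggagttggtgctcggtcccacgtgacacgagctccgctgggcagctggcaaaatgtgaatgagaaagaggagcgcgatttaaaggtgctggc
Olig2, chr16:91225300-91225549, plus strand: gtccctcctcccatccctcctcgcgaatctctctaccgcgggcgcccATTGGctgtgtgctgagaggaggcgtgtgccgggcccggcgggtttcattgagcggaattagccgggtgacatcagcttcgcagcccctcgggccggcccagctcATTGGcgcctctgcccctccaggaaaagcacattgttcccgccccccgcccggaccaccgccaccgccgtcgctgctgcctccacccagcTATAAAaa
The Dbx1 window held TATAAA from 45 bases before the start and CCAAT from 177 and 153. The Olig2 window held TATAAA from 8 bases before the start and CCAAT, on the other strand, from 203 and 98. The Irx3 and Gbx2 windows held neither. CG dinucleotides numbered 12 in Dbx1, 13 in Irx3, 18 in Gbx2, 22 in Olig2 and 30 in the window of Nkx6-1, against a median of 6 (interquartile range 2 to 16) over all windows. None of these 5 windows held the RA receptor half-site AGGTCA (14% of all windows), the paired element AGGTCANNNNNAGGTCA (0.00913%), the GLI letters GACCACCCA (0.225%) or the REST half-sites TTCAGCACC (0.301%) and GGACAGCGC (0.304%), searched on both strands. Entries existed for 6 of the 8 genes, and the 2 of Pax6 began 6848 and 6719 bases from its deposited start, so they are not shown.

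Values are normalized counts, reads divided by a size factor of the library, and the libraries held 30869766 to 40236799 reads in genes. The first principal component (74.5% of the variance) separated the RA libraries from the serum/LIF libraries and the second (11%) the genotypes. On the third, WT replicate 2 after RA lay at −24.7 and the other WT libraries after RA at −13.1 and −13.8, and without it 7 of the 8 genes were still called between the genotypes after RA. The deleted genes fitted the labels: Rlf had 3611 ± 96.3 (SD, n = 3) normalized counts in WT and 6 reads over the 3 DKO libraries in serum/LIF, with 1 read in DKO after RA, and Zfp292 had 0 reads in all 6 DKO libraries. All 15 pluripotency markers examined had means above 10 normalized counts in all 4 groups, so that floor does not set the serum/LIF groups apart. Their summed normalized counts ranged from 184796 to 189626 in WT in serum/LIF and from 10085 to 10171 in WT after RA. In DKO the sums ranged from 165732 to 168819 in serum/LIF and from 17497 to 18384 after RA. Changes were tested with limma on log2(normalized count + 1), with calls made where the Benjamini-Hochberg adjusted p over 15750 tested genes was under 0.05. All 8 genes passed the filter on low values, Dbx1 and Nkx6-1 through their RA libraries alone and Olig2 through its serum/LIF libraries alone.

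Most of these genes rose with RA, and after RA most of them were lower without Rlf and Zfp292. In WT cells 6 of 8 rose with RA (Dbx1, Pax6, Pax3, Irx3, Irx5 and Nkx6-1), Olig2 fell and Gbx2 was not called. The 7 called in either direction are close to the share of all tested genes called in that comparison, 80.6%. By direction, 41.4% of all tested genes were called higher and 39.2% lower. The RA and serum/LIF libraries of WT did not overlap in 7 of 8 genes, Gbx2 being the exception, beside 81.5% of all genes. In DKO cells 5 rose, Olig2 and Gbx2 fell and Nkx6-1 was not called, where 78.3% of all genes were called (40.2% higher, 38.2% lower). There 8 of 8 did not overlap, beside 80.3% of all genes. After RA, 6 of 8 were lower in DKO than in WT, Olig2 was higher and Nkx6-1 was not called, where 42.7% of all genes were called (20.7% lower, 22% higher). The 3 libraries of DKO did not overlap those of WT in 8 of 8 genes, as was so for 54.5% of all genes. The median log2 fold change of the 8 was −1.03, beside 0.01 over all tested genes. In RNA from whole cultures, fewer cells of a type and less RNA of a gene per cell cannot be told apart.

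**Figure D1:**
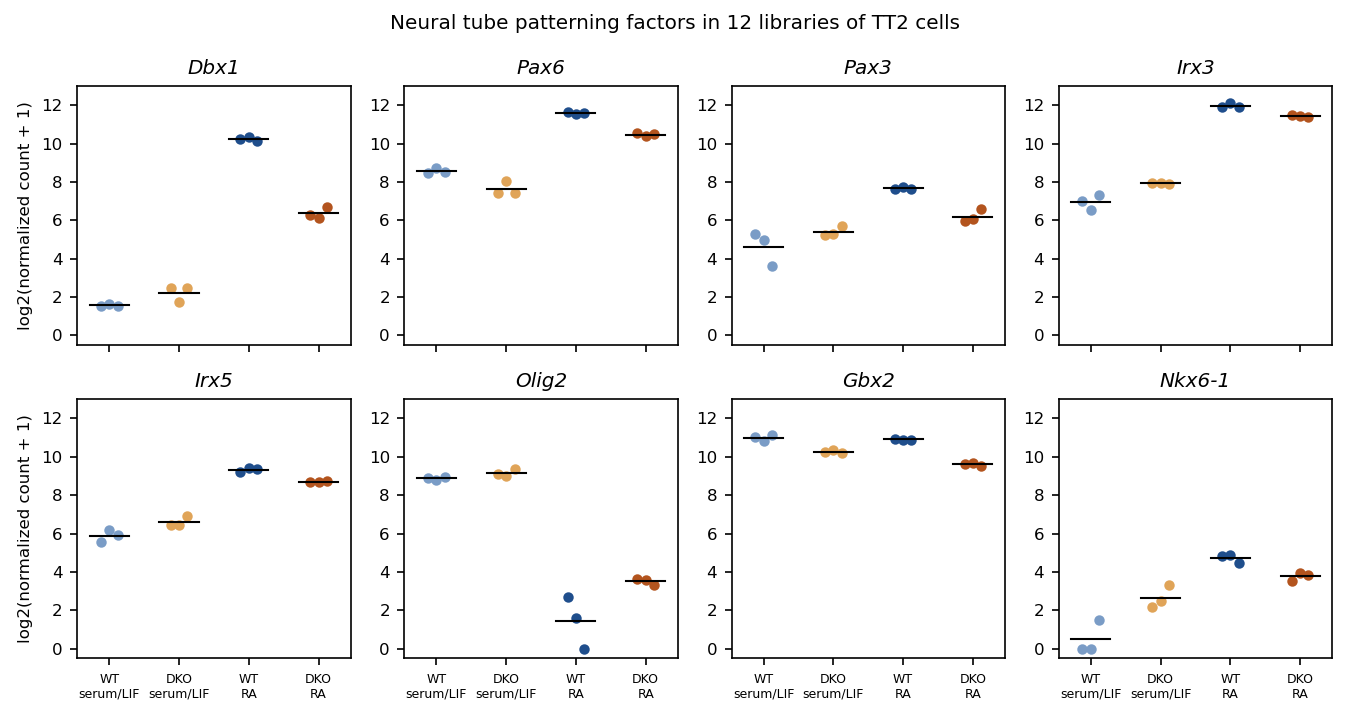
Normalized counts of the 8 genes as log2(normalized count + 1), 1 point per library and a line at the mean of each group of 3; WT is blue and DKO orange, pale in serum/LIF and dark after RA. After RA the DKO points lie below the WT points in 7 panels and above them in that of Olig2.

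In serum/LIF the calls between the genotypes went both ways. Irx3, Irx5 and Nkx6-1 were higher in DKO, Pax6 and Gbx2 were lower, and Dbx1, Pax3 and Olig2 were not called, where 33.2% of all genes were called (17.8% higher, 15.4% lower). The DKO and WT libraries did not overlap in 7 of 8 genes, Pax3 being the exception, beside 43.9% of all genes. Dbx1 is among the 7 only through the size factors, since DKO replicate 2 and each WT library held 2 reads. The median of the 8 was 0.69, beside −0.01 over all genes. The genotype effect after RA differed from that in serum/LIF for 7 of 8 genes, more negative for 6 and more positive for Olig2, where 30.8% of all genes had such a difference (16% more negative, 14.8% more positive). For Pax6 it was not called. The genotype comparisons and the RA comparisons share libraries, so they are not independent of each other.

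**Figure D2:**
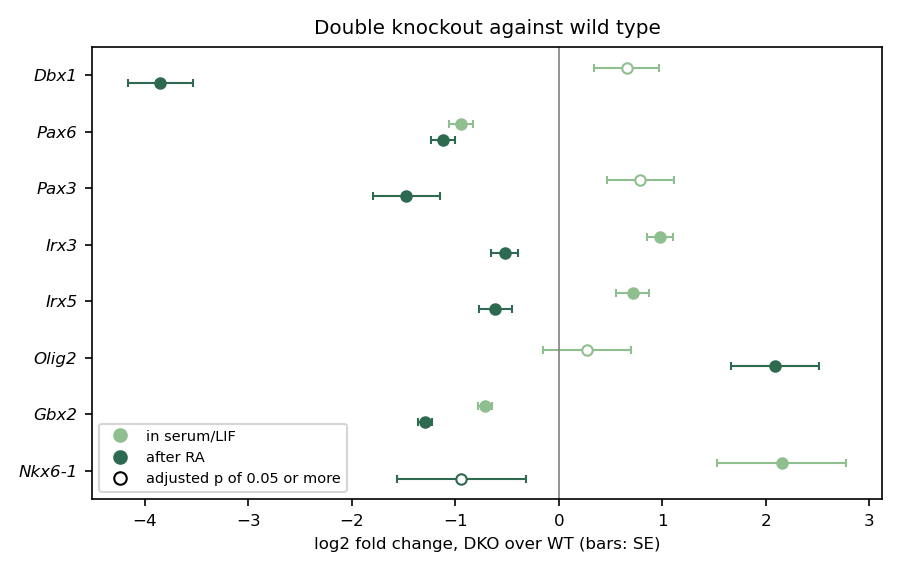
Log2 fold change of DKO over WT with its SE from limma for each gene, in serum/LIF (pale) and after RA (dark); open points have an adjusted p of 0.05 or more. Dbx1 after RA, at −3.85, lies farthest from 0, and Irx3, Irx5, Pax3, Dbx1 and Nkx6-1 lie right of 0 in serum/LIF and left of 0 after RA.

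Dbx1 (chr7:49631499-49636835, minus strand, build mm10 as for all positions below) encodes the homeodomain factor of the progenitors that give V0 interneurons, which join both sides of the spinal cord. In serum/LIF it was almost silent, with 2 reads in each WT library and 4, 2 and 4 reads in the DKO libraries. After RA it reached 1195, 1283 and 1116 normalized counts in WT and 75.8, 69.8 and 104 in DKO. Every RA library was above every serum/LIF library, and the DKO libraries after RA lay far below the WT libraries. DKO was 14.4-fold lower than WT after RA (log2 fold change −3.85 ± 0.31, SE; limma adjusted p = 5.45e-10). RA raised Dbx1 by a read ratio of 607 in WT (95% counting interval 279 to 1655) and 21.8 in DKO (11.7 to 45.9), so it was also induced in DKO (4.15 ± 0.31 on the log2 scale, adjusted p = 1.31e-11). Serum/LIF showed no called difference (adjusted p = 0.114), with a read ratio of 1.94 that counting alone places between 0.640 and 6.51. Without DKO replicate 2 in serum/LIF that difference was called (0.90, adjusted p = 0.0283), on 8 DKO reads. The genotype effect differed between the conditions by −4.51 ± 0.44 (adjusted p = 3.13e-08).

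Dbx2, the other Dbx gene, which is expressed in a wider band around that of Dbx1, was also lower in DKO after RA. Its WT libraries after RA had 66.6, 82.3 and 52.9 normalized counts and its DKO libraries 7.59, 7.35 and 19.7, which did not overlap. The change after RA was −2.56 ± 0.58 (adjusted p = 9.97e-04). Serum/LIF held 22 Dbx2 reads in WT and 25 in DKO, and RA in DKO, with 38 reads, gave no called rise (adjusted p = 0.530).

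Pax6 (chr2:105675744-105698410, plus strand), a paired-box and homeodomain factor of neural progenitors and the eye, was the only one of the 8 whose genotype effect did not differ by a call between the conditions. In serum/LIF the WT libraries had 354, 422 and 365 normalized counts and the DKO libraries 172, 259 and 170. After RA they had 3238, 2963 and 3040 in WT and 1502, 1331 and 1424 in DKO. DKO was lower than WT in both conditions without overlap, and RA raised both genotypes. The fold was 1.90 lower in serum/LIF (−0.95 ± 0.12, adjusted p = 2.82e-06) and 2.17 lower after RA (−1.12 ± 0.12, adjusted p = 2.04e-07). RA raised it 8.10-fold in WT and 7.08-fold in DKO (3.02 ± 0.12 and 2.84 ± 0.12). The difference between the genotype effects was −0.17 ± 0.17 (adjusted p = 0.472), and it was 0.026 (adjusted p = 0.893) without DKO replicate 2 in serum/LIF, the highest DKO library there. Pax6 overlaps Elp4 on the opposite strand, and the strand setting of the counting is not given in the sources used here. Elp4 stayed between 823 and 900 in all group means with no call in any comparison.

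Irx3 (chr8:91798511-91801654, minus strand) and Irx5 (chr8:92357796-92361456, plus strand), homeodomain genes 556 kb apart in 1 Iroquois cluster, went the same way in every comparison. Irx3 bars motor neuron progenitors from spreading dorsally by repressing Olig2. In serum/LIF Irx3 had 126, 92.4 and 159 normalized counts in WT libraries and 247, 245 and 238 in DKO libraries, and after RA 3803, 4400 and 3777 in WT and 2832, 2815 and 2666 in DKO. In serum/LIF Irx5 had 45.8, 70.9 and 59.8 (WT) and 84.8, 86.8 and 119 (DKO), and after RA 583, 692 and 651 in WT and 408, 413 and 434 in DKO. For both genes DKO lay above WT in serum/LIF and below it after RA, with no overlap of libraries.

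The serum/LIF rise in DKO was 1.93-fold for Irx3 (0.98 ± 0.13, adjusted p = 6.55e-06) and 1.65-fold for Irx5 (0.72 ± 0.16, adjusted p = 0.00119). The fall after RA was smaller, both for Irx3 (−0.52 ± 0.13, adjusted p = 0.00265) and for Irx5 (−0.61 ± 0.16, adjusted p = 0.0033). Both were still induced in DKO. RA raised Irx3 31.7-fold in WT and 11.4-fold in DKO, and Irx5 10.9-fold in WT and 4.31-fold in DKO (3.50 ± 0.13 and 2.11 ± 0.16 on the log2 scale in DKO). The genotype effects of the 2 conditions differed by −1.50 ± 0.18 for Irx3 (adjusted p = 3.51e-06) and −1.33 ± 0.23 for Irx5 (adjusted p = 7.9e-05). Irx3 overlaps an antisense transcript, Irx3os, in GENCODE, whose reads cannot be told from its own without a strand setting.

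Of the other Iroquois genes, Irx1 and Irx2 form a second cluster on chromosome 13. Irx2 was called higher in DKO in serum/LIF (0.53 ± 0.19, limma adjusted p = 0.0315), a call lost with the 2 groups fitted alone (0.115) and by edgeR's quasi-likelihood test (adjusted p = 0.0565). It had 264 ± 23.9 normalized counts in WT and 236 ± 12.3 in DKO after RA, a difference that was not called (adjusted p = 0.527). Irx1 had 307, 314 and 342 in WT after RA and 110, 126 and 116 in DKO, which did not overlap. Its test in all 12 libraries gave −1.44 ± 1.00 (limma adjusted p = 0.286), with the spread set by serum/LIF, where DKO replicate 3 had 0 reads and the other DKO libraries 16 and 18. With the 2 RA groups alone the limma adjusted p was 3.41e-09, without that library 7.75e-05, and by edgeR's quasi-likelihood test 3.31e-05. Irx4, at 34.4 ± 11.1 and 16.8 ± 10.3 after RA, was not called (adjusted p = 0.0808).

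Pax3 (chr1:78101267-78197136, minus strand), a factor of the dorsal neural tube, neural crest and somite, was weakly expressed. In serum/LIF its normalized counts were 38.2, 30.1 and 11.2 in WT (80 reads in all) and 36.7, 37.6 and 51.8 in DKO (110 reads). After RA they were 197, 216 and 196 in WT and 60.7, 65.2 and 95.8 in DKO. The serum/LIF groups overlapped and the RA groups did not. After RA, DKO was 2.75-fold lower (−1.47 ± 0.32, adjusted p = 6.87e-04). RA raised Pax3 7.65-fold in WT (3.05 ± 0.32, adjusted p = 6.23e-09) and 1.76-fold in DKO (0.79 ± 0.32, adjusted p = 0.0296). The DKO rise was no longer called without DKO replicate 1 (adjusted p = 0.0868) or 2 (0.0851) in serum/LIF or without DKO replicate 3 after RA (0.144). In serum/LIF the difference of 0.79 ± 0.32 was not called (adjusted p = 0.063), and it was without WT replicate 1 (1.12, adjusted p = 0.0112) or WT replicate 2 (0.96, adjusted p = 0.048). The genotype effects differed by −2.26 ± 0.46 (adjusted p = 5.1e-04).

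Pax7, the closest relative of Pax3 and also a dorsal progenitor gene, had a larger fold change. After RA it had 191, 149 and 157 normalized counts in WT and 17.1, 16.5 and 17.9 in DKO, 56 reads over the 3 DKO libraries. The change was −3.19 ± 0.39 (adjusted p = 3.86e-07), a read ratio of 9.67 (7.33 to 13). In DKO its rise with RA was not called (0.83 ± 0.39, adjusted p = 0.0542), while in WT it rose by 4.16 ± 0.39. The DKO rise was called without DKO replicate 3 in serum/LIF (1.19, adjusted p = 0.00996). Pax2, Pax5 and Pax8 were also lower in DKO after RA (−1.57 ± 0.32, −1.74 ± 0.52 and −1.24 ± 0.45). They form 1 subfamily and mark the midbrain-hindbrain boundary. Pax5 was low, with 54, 38 and 66 reads in the WT libraries after RA and 24, 30 and 4 in the DKO libraries. Pax8 was low throughout and was already lower in DKO in serum/LIF (30.7 ± 7.60 in WT, 7.60 ± 5.13 in DKO). That change was −2.01 ± 0.45 (limma adjusted p = 0.00126), and its genotype effects did not differ by a call (limma adjusted p = 0.395). Pax1, a somite gene, was higher, with 80 reads in DKO and 6 in WT (3.15 ± 0.84, adjusted p = 0.004). Pax9 was not called (adjusted p = 0.708).

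Olig2 (chr16:91225550-91228677, plus strand), the bHLH factor of motor neuron and oligodendrocyte progenitors, was the only one of the 8 with a higher level in DKO than in WT after RA. In serum/LIF it had 477, 437 and 491 normalized counts in WT and 546, 511 and 648 in DKO. After RA it was near zero, with 6, 2 and 0 reads in the WT libraries and 12, 12 and 10 in the DKO libraries. The RA groups did not overlap, and every RA library was far under every serum/LIF library. RA lowered it by a read ratio of 189 in WT (95.8 to 439) and 54.6 in DKO (38.9 to 79.1). After RA the DKO level was 4.20 times that of WT by reads (1.91 to 10.5), with a log2 change of 2.09 ± 0.42 (adjusted p = 4.75e-04), which rests on 34 and 8 reads. In serum/LIF the difference of 0.27 ± 0.42 was not called (adjusted p = 0.668), and it was called when the 2 serum/LIF groups were fitted alone (adjusted p = 0.0423).

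The genotype effects on Olig2 differed by 1.82 ± 0.60 (adjusted p = 0.026). That call was lost with a pseudocount of 0.5 (adjusted p = 0.0745). It was also lost without DKO replicate 1 (0.0503) or 2 (0.0566) in serum/LIF, WT replicate 2 after RA (0.0617), or DKO replicate 1 (0.0603) or 2 (0.0588) after RA. Olig1, its neighbour 41.1 kb away, reached 694 ± 39.8 (WT) and 727 ± 96.7 (DKO) normalized counts in serum/LIF, and 34 and 50 reads after RA, with no called genotype difference. Without WT replicate 2 after RA, which stood apart above, Olig1 was called higher in DKO after RA (1.15, adjusted p = 0.00122, against 0.69 and 0.0995 with it), and its genotype effects differed (adjusted p = 0.0227). Olig3, a dorsal progenitor gene, was lower in DKO in serum/LIF (174 ± 27.1 in WT, 74.0 ± 9.94 in DKO, −1.22 ± 0.30, adjusted p = 0.0028). After RA it was higher in DKO (32 and 66 reads, 1.01 ± 0.30, adjusted p = 0.00905), a call that was lost with the 2 RA groups fitted alone (adjusted p = 0.0753). The markers of mature oligodendrocytes Mog and Mag and the ventral factor Nkx2-2 were under 10 normalized counts in both serum/LIF groups, where Olig2 was highest.

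Nkx6-1 (chr5:101659184-101664711, minus strand), a ventral homeodomain factor also known from pancreatic beta cells, had the fewest reads. In serum/LIF its reads were 0, 0 and 2 in WT and 3, 4 and 8 in DKO, and after RA 30, 28 and 24 in WT and 11, 16 and 15 in DKO. The groups did not overlap in either condition. After RA the difference of −0.94 ± 0.62 was not called (limma adjusted p = 0.236). The WT-to-DKO read ratio was 1.98, with a counting interval of 1.35 to 2.94 that takes each read as independent. In serum/LIF DKO was called higher (2.15 ± 0.62, adjusted p = 0.00944) on 15 and 2 reads, a ratio of 8.75 (2.03 to 78.9), and this call was lost with the 2 groups fitted alone (adjusted p = 0.0734). RA raised it in WT (4.21 ± 0.62, adjusted p = 1.31e-06), and in DKO the 1.12 ± 0.62 was not called (adjusted p = 0.105; 0.0492 with a pseudocount of 5). The genotype effects differed by −3.10 ± 0.88 (adjusted p = 0.00932). Its relative Nkx6-2 fell with RA in both genotypes (82.8 ± 7.71 to 25.1 ± 11.2 in WT) and did not differ by a call between them.

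Gbx2 (chr1:89927962-89931176, minus strand), a homeodomain factor of the anterior hindbrain that undifferentiated ES cells also express, was the only one of the 8 without a called RA change in WT. Its normalized counts were 2062, 1823 and 2243 in WT in serum/LIF and 1945, 1910 and 1916 in WT after RA, and these groups overlapped. In DKO they were 1236, 1297 and 1193 in serum/LIF and 799, 810 and 743 after RA. DKO lay below WT in both conditions, 1.65-fold in serum/LIF (−0.71 ± 0.07, adjusted p = 7.51e-09) and 2.45-fold after RA (−1.29 ± 0.07, adjusted p = 1.81e-13). In DKO RA lowered it 1.58-fold (−0.66 ± 0.07, adjusted p = 2.42e-09), and the genotype effects differed by −0.58 ± 0.09 (adjusted p = 4.12e-05). In WT the RA change of −0.08 ± 0.07 was not called (adjusted p = 0.261), but turned to 0.18 (adjusted p = 0.0152) with equal totals for all libraries and was −0.16 (adjusted p = 0.0329) without WT replicate 2 in serum/LIF. A GENCODE transcript, D130058E05Rik, overlaps Gbx2 on the other strand.

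Otx2, which opposes Gbx2 at the midbrain-hindbrain boundary, stood at 1310 ± 92.3 (WT) and 1183 ± 16.4 (DKO) normalized counts in serum/LIF. After RA 8 reads were left in WT and 44 in DKO (2.31 ± 0.47 higher in DKO, adjusted p = 0.00145). Gbx1, the other Gbx gene, rose with RA in both genotypes and had 123 ± 36.8 in WT and 107 ± 13.4 in DKO after RA, a difference that was not called (adjusted p = 0.633).

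**Figure D3:**
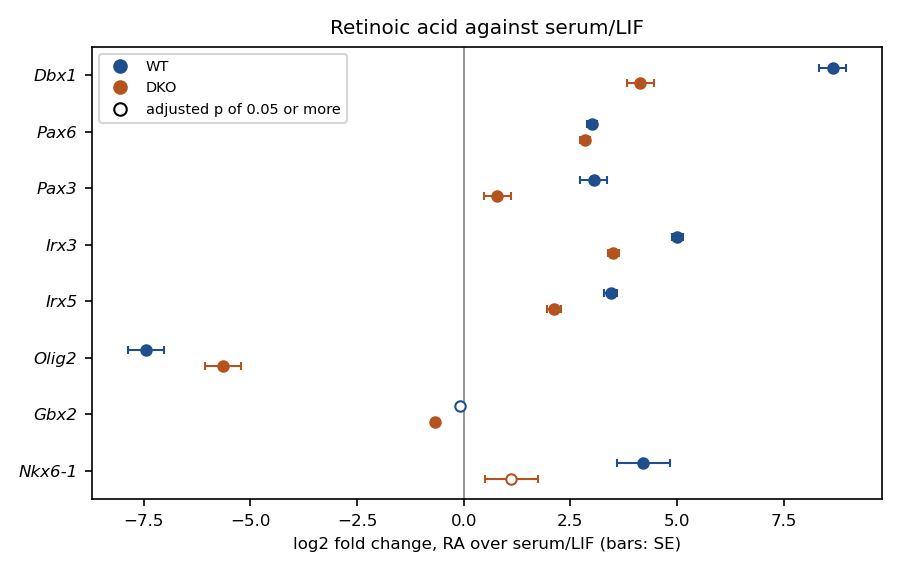
Log2 fold change of RA over serum/LIF with its SE from limma for each gene, in WT (blue) and DKO (orange); open points have an adjusted p of 0.05 or more. Dbx1 goes from 8.65 in WT to 4.15 in DKO, Pax6 differs least (3.02 and 2.84), and Olig2 lies left of 0 in both.

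Per kilobase of transcript, which allows levels of different genes to be set side by side, the order of the 8 changed with RA and with genotype. Gbx2 led in WT in serum/LIF (957 ± 98.7 normalized counts per kb), followed by Olig2 (185 ± 11) and Pax6 (124 ± 11.9), with Dbx1 (0.945) and Nkx6-1 (0.199) last. In WT after RA Irx3 led (1453 ± 128), then Pax6 (1004 ± 46.2), Gbx2 (901 ± 8.67), Dbx1 (573 ± 40.0), Irx5 (262 ± 22.6), Pax3 (52.5 ± 2.90), Nkx6-1 (8.14 ± 1.12) and Olig2 (0.976 ± 1.08). No neighbours in that order overlapped in their libraries. In DKO after RA the first 3 places were the same, Irx3 (1008 ± 33.2), Pax6 (462 ± 27.9) and Gbx2 (367 ± 16.9). Dbx1 (39.8 ± 8.68) dropped behind Irx5 (171 ± 5.66), and Olig2 (4.13 ± 0.52) and Nkx6-1 (4.09 ± 0.70) overlapped. In serum/LIF Irx3 and Pax6 changed places, 45.8 ± 12.1 and 124 in WT against 88.5 ± 1.74 and 65.3 ± 16.6 in DKO.

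In the authors' deposited table the 7 genes called here after RA also had adjusted p-values under 0.05, among them 2.49e-67 for Gbx2, 8.83e-138 for Dbx1 and 0.00145 for Olig2, and Nkx6-1 had 0.157. The authors' deposited table gave log2 fold changes of 9.25 for Dbx1 and 5.29 for Nkx6-1 with RA in WT, above the 8.65 and 4.21 found here, since a pseudocount of 1 shrinks the change of genes near zero.

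Other genes of the neural tube were taken from lists of progenitor, neuron, axis and signalling genes, whose counts stand beside the 42.7% called and the median of 0.01 over all tested genes. After RA, 5 of 16 tested dorsal progenitor genes were lower in DKO and 4 higher (median −0.37). The proneural bHLH gene Neurog1 (−1.66 ± 0.20) fell with Pax7, while Lmx1b, a LIM homeodomain gene of dorsal interneurons and the midbrain, was higher (200 ± 20.3 and 492 ± 9.67; 1.30 ± 0.17). Of 10 intermediate and ventral progenitor genes 4 were lower and 2 higher (median −0.80). Besides Dbx2 the lower ones were Bhlhe22 (−2.38 ± 0.39), Prdm12 (−2.09 ± 0.48) and Prdm13 (−2.11 ± 0.52), genes of interneuron or sensory neuron development. Foxa2, the floor plate and endoderm factor, was higher (175 ± 13 and 383 ± 71.1; 1.11 ± 0.40, adjusted p = 0.0299).

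Of 21 genes that mark classes of postmitotic neurons 10 were lower and 3 higher (median −0.62). Pou4f1, a gene of sensory neurons and dorsal interneurons, went from 307 ± 10.1 in WT to 100.1 ± 19.9 in DKO (−1.63 ± 0.17) and the LIM homeodomain gene Lhx5 from 151 ± 29.6 to 30.5 ± 9.31 (−2.29 ± 0.33). Of 27 genes of the head-to-tail axis 6 were higher and 3 lower (median −0.08). Cdx1, a posterior homeobox gene, was higher (1.11 ± 0.20), as was the boundary signal Fgf17 (1.46 ± 0.28, 6.01 ± 2.77 in WT and 17.9 ± 5.47 in DKO).

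Genes of the Shh pathway changed in both directions after RA, with 7 of 19 genes higher in DKO and 6 lower (median 0.08). Gli1, a transcription factor that the pathway switches on, was higher (109 ± 30.3 in WT, 401 ± 43.3 in DKO; 1.90 ± 0.14, adjusted p = 1.52e-10), as was Ptch1, the Shh receptor and itself a target (0.60 ± 0.06). The co-receptor genes Boc (−1.42 ± 0.15), Gas1 (−0.80 ± 0.09) and Cdon (−0.42 ± 0.07) were lower, as was Sfrp1, a secreted Wnt antagonist in the same list (−0.97 ± 0.05). Shh itself had 44 reads in WT and 36 in DKO after RA. Of 19 BMP and Wnt signalling genes 4 were higher and 3 lower (median −0.10). The antagonist follistatin, Fst, was higher (1.64 ± 0.17), as was Wnt3 (1.65 ± 0.26), and the BMP targets Id1 (−0.93 ± 0.11) and Id3 (−0.54 ± 0.05) were lower. Of the 14 tested relatives of the 8 genes described above 5 were lower and 2 higher (median −0.70).

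**Figure D4:**
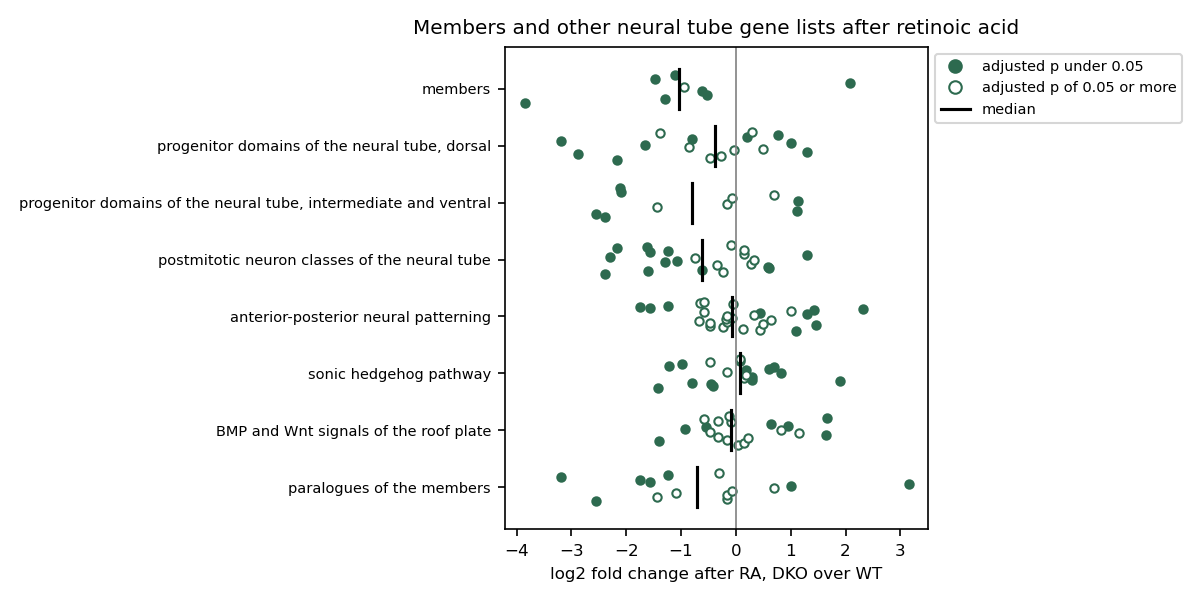
Log2 fold change of DKO over WT after RA for the 8 genes (top row) and for 7 lists of neural tube genes, 1 point per tested gene, filled at an adjusted p under 0.05, with a line at the median of each row. The row of the 8 genes has its median at −1.03, and the Shh pathway row has points on both sides of 0 with its median at 0.08.

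In serum/LIF, where 33.2% of all genes were called, the lists had 2 higher and 1 lower of 16 dorsal genes, 2 and 0 of 10 intermediate and ventral genes, and 7 and 1 of 21 neuron class genes. The axis list had 7 higher and 2 lower of 27, the Shh pathway 6 and 1 of 19, the BMP and Wnt list 6 and 1 of 19, and the relatives 1 and 2 of 14. With RA in WT, where 80.6% of all genes were called, 9 of 16 dorsal genes rose and 5 fell, and 7 of 10 intermediate and ventral genes rose and 2 fell. The dorsal genes that fell included Zic2 and Zic5, zinc finger genes (−2.93 ± 0.08 and −3.65 ± 0.14).

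Markers of other states and cell types also differed between the genotypes, beside 42.7% of all genes called after RA (22% higher, 20.7% lower). After RA, 14 of 15 pluripotency markers were higher in DKO and 0 lower, with none at 0, and their summed normalized counts ranged from 10085 to 10171 in WT and from 17497 to 18384 in DKO. Of 14 neural progenitor markers 4 were higher and 9 lower, their sum being 41643 to 42985 in WT and 44203 to 44562 in DKO. Vim and Nes, intermediate filament genes, were higher (0.35 ± 0.03 and 0.39 ± 0.04), while the transcription factor genes Sox1 (−1.18 ± 0.08) and Sox3 (−1.86 ± 0.12) fell. Of 14 neuron markers 11 were lower and 1 higher, with sums of 8337 to 9632 in WT and 4644 to 4990 in DKO. These sums were higher in serum/LIF, before differentiation, at 20950 to 22837 in WT and 22933 to 23601 in DKO. They therefore do not measure the number of neurons. None of these genes was at 0 in either group after RA. The part of these shifts in the changes of Dbx1, Pax6, Pax3, Irx3, Irx5, Olig2 and Gbx2 was not tested.

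Pax3, Olig2 and Nkx6-1 are also used outside the neural tube. The counts of called markers after RA stand beside 42.7% of all genes (22% higher, 20.7% lower). After RA, neural crest markers were 3 higher and 2 lower of 10 in DKO, with sums of 3518 to 3622 in WT and 4262 to 4507 in DKO and none at 0. Paraxial mesoderm and muscle markers were 1 higher and 2 lower of 8 tested (3346 to 3595 and 2121 to 2240), with Mesp1 at 0 reads in WT and Myod1 under 10 in both groups. Of 6 tested oligodendrocyte markers 1 was higher and 2 lower (2018 to 2687 and 2396 to 2511), with none at 0. Of 4 tested pancreatic markers 2 were higher and 0 lower (868 to 926 and 1057 to 1187), and Pdx1, Neurog3 and Ptf1a were under 10. Endoderm markers were 6 higher and 1 lower of 14 (10662 to 11358 and 15145 to 15542), and non-neural ectoderm markers 3 and 2 of 8 (12718 to 13717 and 12357 to 12960). Fibroblast markers were 5 higher and 1 lower of 12 (59377 to 61820 and 71433 to 74439). In serum/LIF, 10 of these 12 were higher in DKO, where 17.8% of all genes were called higher. Their sums there were 8258 to 8308 in WT and 23765 to 25211 in DKO, beside the rise of Irx3, Irx5 and Nkx6-1. Neural progenitor markers were also 10 higher and 1 lower of 14 in DKO in serum/LIF. The sums of that list there were 31875 to 33332 in WT and 41924 to 42932 in DKO. The part of any of these in the results was not tested.

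Across the 12 libraries, which differ mainly by RA, the pattern of each gene was compared with others by the correlation of log2(normalized count + 1), a description without a test. Irx3 and Irx5 ran closest among the 8 (r = 0.984), Dbx1 followed Irx5 at 0.957, and Gbx2 followed none of the other genes by more than 0.132 in the positive direction, with Irx3 at −0.320. Among 12396 genes whose mean reached 100 in some group, the closest to Dbx1 were Arf3 (0.996), Clptm1 (0.994) and C3 (0.994), with Boc at 0.982 among the lists. The closest to Pax6 were Stat3 (0.995), Myd88 (0.994) and St6galnac3 (0.993). Irx3 was most like Heg1, Gyg and Phactr2 (all 0.997), and Irx5 most like Ppm1h (0.998), Ube2j1 (0.996) and Sorbs3 (0.994).

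For Gbx2 the closest genes were Txnip (0.990), Nxf3 (0.979) and Socs3 (0.974), and in the lists the best was Sfrp1 at 0.826. Olig2 was most like Bspry (0.998), Otx2 (0.995) and Cpne9 (0.995). Pax3 was closest to Gsap (0.966), Ncald (0.961) and Sowahc (0.949), and Nkx6-1 to Pip4k2a (0.976), Adamts5 (0.969) and Bex3 (0.967).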

How the data were processed

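Per the labels' protocols, total RNA of TT2 cells was extracted with ISOGEN and sequenced as paired-end reads. GEO's molecule field reads genomic DNA, against those protocols. Per the submitters' processing notes, the tools were STAR 2.7.11b after Trim Galore 0.6.10, then featureCounts (Subread 2.0.6) and DESeq2 1.44.0, on build mm10. The sources used here give no setting for strand or for reads with several hits. The library columns that the authors deposited hold a signal, whole reads divided by a size factor (100% of values within 0.01 of a whole read). Per the file headers, the authors deposited log2 fold changes and p-values as well, of which the adjusted p-values and log2 fold changes of the 8 genes are given.

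Here values were transformed as log2(value + 1), which understates changes of low genes. The filter kept 15750 genes that reached 10 in 3 or more libraries and left out 2151. All 12 libraries entered 1 limma fit (limma 3.58.1, R 4.3.3, trend and robust settings, two-sided) with 1 mean per group and Benjamini-Hochberg adjustment over all tested genes. Adjusted p-values in the text are from this fit unless another is named. The interaction subtracts the genotype effect in serum/LIF from that after RA. A ± beside a log2 value is the SE, and beside a level the SD over 3 libraries. Folds are ratios of group means. Read ratios carry 95% intervals for counting error only, which take each read as independent, though reads are not independent molecules. Recovered reads of Olig1, Pax1, Pax5, Pax8 and Irx4 were even in all 12 libraries. The mates of a read pair may thus have been counted singly, which was not tested and would make these intervals too narrow. The depth sets the precision: at under 20 reads a group these intervals span several-fold. Transcript lengths came from GENCODE M21, matched by RefSeq accession for all 8 genes, and promoter windows from RefSeq. Scripts were tested on simulated data.

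The 8 genes and the lists were chosen with earlier results of these data known. Named were the 8 genes, their relatives that passed the filter, Rlf and Zfp292, from each list and comparison up to 4 called genes with the smallest adjusted p, and for likeness the 3 closest genes overall and the 2 closest of the lists, predicted genes left out. The text gives part of this choice, and some of its genes are not reported here. Elp4, Irx3os and D130058E05Rik were named for their overlap, and Shh for its role. Alternatives were pseudocounts of 0.5 and 5, no filter, a minimum of 50, equal gene totals, TMM scaling, edgeR 4.0.16 and DESeq2 1.42.0 on recovered reads, 2 groups alone, a replicate block, and each library left out in turn.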

Additional observations from a re-analysis of the deposited data

Results flagged for a closer look

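For 7 of the 8 genes the effect of the double knockout differed between the conditions, by the interaction test of limma. Subtracting the serum/LIF effect from the RA effect gave −4.51 for Dbx1, −3.10 for Nkx6-1, −2.26 for Pax3, −1.50 for Irx3, −1.33 for Irx5, −0.58 for Gbx2 and 1.82 for Olig2, on the log2 scale. Irx3 and Irx5 were called in opposite directions in the 2 conditions. Gbx2 was lower in both, more so after RA. Dbx1, Pax3 and Olig2 were called after RA and not in serum/LIF, and Nkx6-1 in serum/LIF and not after RA. Such a difference was called for 30.8% of all tested genes.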

How the results depend on the processing

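Under 22 alternatives (21 for the interaction) the number of the 8 genes called kept within 1.5 times its main value. After RA it was 7 in every one. In serum/LIF it ranged from 4 to 6, for RA in WT from 6 to 8, for RA in DKO from 6 to 8 and for the interaction from 6 to 7. Leaving out 1 library at a time gave 5 to 6, 7 to 8, 6 to 7 and 6 to 7 in the same order. Of 867 values of single genes, 849 kept their direction and their side of the threshold, 10 lost the call, 6 gained it and 2 turned. The 2 were Gbx2 with RA in WT, 0.18 with equal gene totals, and the Pax6 interaction, 0.026 without DKO replicate 2 in serum/LIF and −0.28 to 0.026 over the libraries left out in turn. Equal gene totals moved the median of all genes with RA from 0.04 to 0.29 in WT and to 0.27 in DKO, and the share of called genes that were higher from 51.3% to 63.1% and 62.9%. With the replicate block the counts were 5 in serum/LIF, 7 after RA, 7 for RA in WT, 7 for RA in DKO and 7 for the interaction, and no call of the 8 genes changed. The replicate numbers did not pair the libraries (correlations of −0.03 to 0.05 over 18 same-numbered pairs). Nkx6-1 was not tested at a minimum of 50. Depth limits Dbx1 and Nkx6-1 in serum/LIF and Olig2 after RA, each on 34 reads a group or fewer.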

Other observations

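Further genes of the lists differed between the genotypes in serum/LIF. Six6, a homeobox gene of the eye field, had 12.2 ± 6.89 normalized counts in WT and 81.1 ± 7.66 in DKO (2.83 ± 0.54, adjusted p = 2.6e-04), and after RA 16 and 10 reads. Fst, which encodes a secreted antagonist of activin and BMP, rose by 1.92 ± 0.17 and the BMP family gene Gdf6 by 3.45 ± 0.51, while Bmp4 fell by 1.49 on the log2 scale (870 ± 46.6 and 309 ± 11.8). Fst was also higher in DKO after RA (1.64 ± 0.17), and Bmp4 was not called there (0.14 ± 0.14).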
